A study of Canis lupus familiaris with 32 samples.

Results

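Of 32 primary canine osteosarcomas (OS), 6 arose outside the limb skeleton: 3 in the mandible (tumors 16, 21 and 31), 2 in a rib (tumors 1 and 22) and 1 outside bone (tumor 19, extraskeletal). They are called axial tumors here. Membership followed the tumor location in the study's clinical table, whose entries carry the numbers of the array labels, and the other 26 tumors, 2 of them in the scapula, formed the limb group. The tumors were sampled before chemotherapy from dogs grouped by survival into short survivors (SS, under 6 months) and long survivors (LS), and the question asked here was whether tumors at these sites differ in expression from tumors of the limbs. RNA of each tumor was hybridized on 1 two-color cDNA array, in which tumor and reference carry different dyes, against a reference that pooled all 32 tumors. Values were read as log2 ratios, positive where the tumor exceeded this reference.

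The axial group held 2 SS (tumors 1 and 16) and 4 LS, 4 females and 2 males, aged from 2 years and 3 months to 9 years and 2 months (median 4.88 years), and all 6 tumors were of high grade. The limb group held 14 SS and 12 LS, 10 females and 16 males, aged from 2 years and 6 months to 11 years and 9 months (median 7.54 years), with 19 tumors of high, 6 of medium and 1 of low grade. A fibroblastic component was recorded in 4 axial and 12 limb tumors, a chondroblastic one in 2 and 6, and a telangiectatic one in 2 and 2. Great Danes, Dobermanns and Mastiffs were all in the limb group. Most limb dogs received chemotherapy after surgery, but among axial dogs only that of tumor 19 did. Location therefore moved with survival, sex, age, grade, breed, later chemotherapy and the telangiectatic component, and these cannot be told apart fully with 6 tumors. Each sample was 1 tumor of 1 dog, and the p-values measure the spread between these tumors.

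OS is a malignant tumor whose cells lay down bone matrix, and in large dogs it arises mostly near the growth zones of the long limb bones. The bones of the jaw derive from the cranial neural crest, the ribs from the somites and the limb bones from the lateral plate. Skeletal cells of these origins carry different sets of active position genes, such as the HOX genes, which are switched on along the body and limb axes.

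The tumor was labeled with Cy5 on 3 axial and 13 limb arrays and with Cy3 on the other 3 and 13, and this orientation entered each model. The mean ratios of the Cy5 and of the Cy3 arrays correlated at -0.658 across probes. The paper states that data of arrays with swapped dyes were switched before its statistics, and differences are given with the sign as deposited. Where that was done, turning the Cy3 sign sets the orientations against each other. Done as a check, it turned the direction of 15 named genes, RELN and NPM3 among them. Median ratios of the axial arrays lay between -0.03 and 0.01 and those of the limb arrays between -0.02 and 0.02. Tumor 1 had the largest SD of log2 ratios of all arrays (0.76, against 0.47 to 0.73 in limb tumors). It was also the highest or lowest of the 16 arrays of its orientation for 22.9% of probes, and tumor 22 for 21.7%, where equal shares would give 12.5%. The other 4 axial tumors had shares of 7.22% to 16.6% and limb tumors 4.63% to 28.0%, the highest being tumor 13. The genes named for the rib tumors are therefore given per tumor. Because the pool was made of the tumors, the ratios hold no absolute level, and bone markers could not check the tissue. Skeletal muscle genes were high in both scapula tumors, which differ in orientation. Their mean log2 ratio was 0.90 in tumor 27 (Cy3) and 1.32 in tumor 30 (Cy5), against -0.47 to 0.87 in the other limb tumors. COL2A1 and COMP, cartilage matrix genes, had a mean level of -2.17 to 1.05 (median -0.97) in the 8 tumors with a recorded chondroblastic component and of -2.31 to 2.32 (median -1.13) in the other 24, and the ranges overlapped almost fully. The match of the clinical table to the arrays rests on the tumor numbers, and the survival group in the array labels is that of the table for every tumor. Tumor location is not in these labels.

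Axial and limb tumors did not differ at any probe after adjustment. Limma called 0 of 22176 probes (0%) at an adjusted p under 0.10, with a smallest adjusted p of 0.325. At an unadjusted p under 0.05 it found 1186 probes (5.35%), 690 higher (3.11%) and 496 lower (2.24%) in axial tumors. On 1 mean per gene it called 0 of 5246 genes (0%), with 310 at an unadjusted p under 0.05 (5.91%) and a smallest adjusted p of 0.398. At 0 probes did the axial and limb groups lie fully apart, also after the orientation means were taken off. The median difference over probes was 0.09 in size with a median SE of 0.13, all on the log2 scale. The differences found within the Cy5 and within the Cy3 arrays correlated at 0.0106 across probes, and 50.4% of probes had the same sign in both.

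The genes with the smallest p are given as values, since none passed. CTNNA1, alpha-catenin, which links cadherin adhesion to actin, had log2 ratios of 0.29 and 0.76 in rib tumors 1 and 22, 0.25, 0.78 and 0.61 in mandible tumors 16, 21 and 31, and -0.02 in the extraskeletal tumor 19. Limb tumors ranged from -0.85 to 0.73 (median -0.12), so that all 6 axial tumors lay above the limb median and 2 above every limb tumor. The difference of axial minus limb was 0.53 (SE 0.13, limma adjusted p = 0.641), and the other probes of CTNNA1 differed by 0.38 and 0.30.

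RELN, the secreted matrix protein reelin, varied widely among the axial tumors: 3.22 in rib tumor 22, 2.03 in tumor 19, 1.58 in mandible tumor 21, -0.59 and -1.004 in mandible tumors 31 and 16, and -3.00 in rib tumor 1. Limb tumors ranged from -3.37 to 0.49 (median -1.70). The rib, mandible and extraskeletal sites thus each held a tumor above every limb tumor, while the other rib tumor lay near the lowest. The difference was 2.10 (SE 0.52, adjusted p = 0.641), and it ranged from 1.61 without tumor 22 to 2.70 without tumor 1 (limma adjusted p = 0.0847 for the latter).

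ZFAND5, a zinc finger protein that binds ubiquitin, was highest in the rib tumors (1.10 and 0.79), followed by mandible tumors 16, 21 and 31 (0.59, 0.30 and 0.21) and tumor 19 (-0.04), with limb tumors from -0.69 to 0.70 (median -0.05). Its 3 probes differed by 0.42 to 0.61 between axial and limb tumors. CHMP5, a part of the ESCRT-III membrane machinery, lay between 0.18 (tumor 21) and 0.66 (tumor 16) in the axial tumors and between -0.82 and 0.39 (median -0.04) in limb tumors. All 6 axial tumors lay above the limb median of CHMP5 and 3 above the whole limb range, with a difference of 0.42 (SE 0.11, limma adjusted p = 0.641), and its other probe differed by 0.30.

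Among the other genes with higher means, TRIB1, a scaffold for protein degradation, differed by 0.79 (SE 0.21) with mandible tumor 31 at 1.58 and rib tumor 22 at 1.04. LEPROTL1 was above every limb tumor (highest 0.43) in 5 of the 6 axial tumors, with the exception of rib tumor 22 at -0.23. The transsulfuration enzyme gene CTH differed by 0.45, the ether lipid enzyme gene FAR1 by 0.42, the endophilin gene SH3GL3 by 0.89, the sorting nexin gene SNX10 by 0.57 and SMAD5, which carries bone morphogenetic protein signals, by 0.49. FAM118B differed by 0.31, and its other 4 probes by -0.03 to 0.17. Limma's adjusted p for these genes lay between 0.641 and 0.873.

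NPM3, a member of the nucleoplasmin family, was the gene with the smallest p. It had log2 ratios of -0.54 and -0.91 in rib tumors 1 and 22, -0.80, -0.44 and -0.59 in mandible tumors 16, 21 and 31, and -0.51 in tumor 19, against -0.58 to 0.83 (median 0.04) in limb tumors. The axial tumors lay close together, all below the limb median and 3 below every limb tumor. The difference was -0.72 (SE 0.16, limma adjusted p = 0.641).

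PSAT1, an enzyme of serine synthesis, had the largest difference among these genes (-2.82, SE 0.77, adjusted p = 0.873). Its log2 ratios were -5.33 in mandible tumor 21, -4.28 and -2.32 in rib tumors 1 and 22, -1.34 and -0.83 in mandible tumors 16 and 31, and 0.68 in tumor 19. Limb tumors spread from -3.37 to 6.83 (median 0.47), a range that holds all but the lowest 2 axial tumors. UCMA, a secreted protein of cartilage, was below every limb tumor (lowest -0.11) in 4 axial tumors, down to -0.88 in rib tumor 1, but at 0.10 and 0.04 in mandible tumors 21 and 31 (difference -0.39, SE 0.09, limma adjusted p = 0.641).

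Of the other genes with lower means, the peroxisomal transporter gene ABCD3 differed by -0.52, the DNA repair gene PARP2 by -0.35, the glycogenin gene GYG1 by -0.65, with its other 3 probes at -0.43 to -0.19, and the chromatin gene RSF1 by -0.76, with tumor 21 at -2.47 and its other probe at 0.01. CPNE8, a copine, was at -3.37 in rib tumor 1 and between -0.71 and -0.07 in the other axial tumors, and its other probe differed by -0.13. FBXO39 differed by -0.20 and PDRG1 by -0.21, with other FBXO39 probes at -0.19 and -0.03. The ribosomal protein genes RPL13 and RPL10A differed by -0.43 and -0.48. Both RPL13 probes and all 7 RPL10A probes, the latter at -0.48 to -0.18, had a lower mean in axial tumors.

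**Figure D1:**
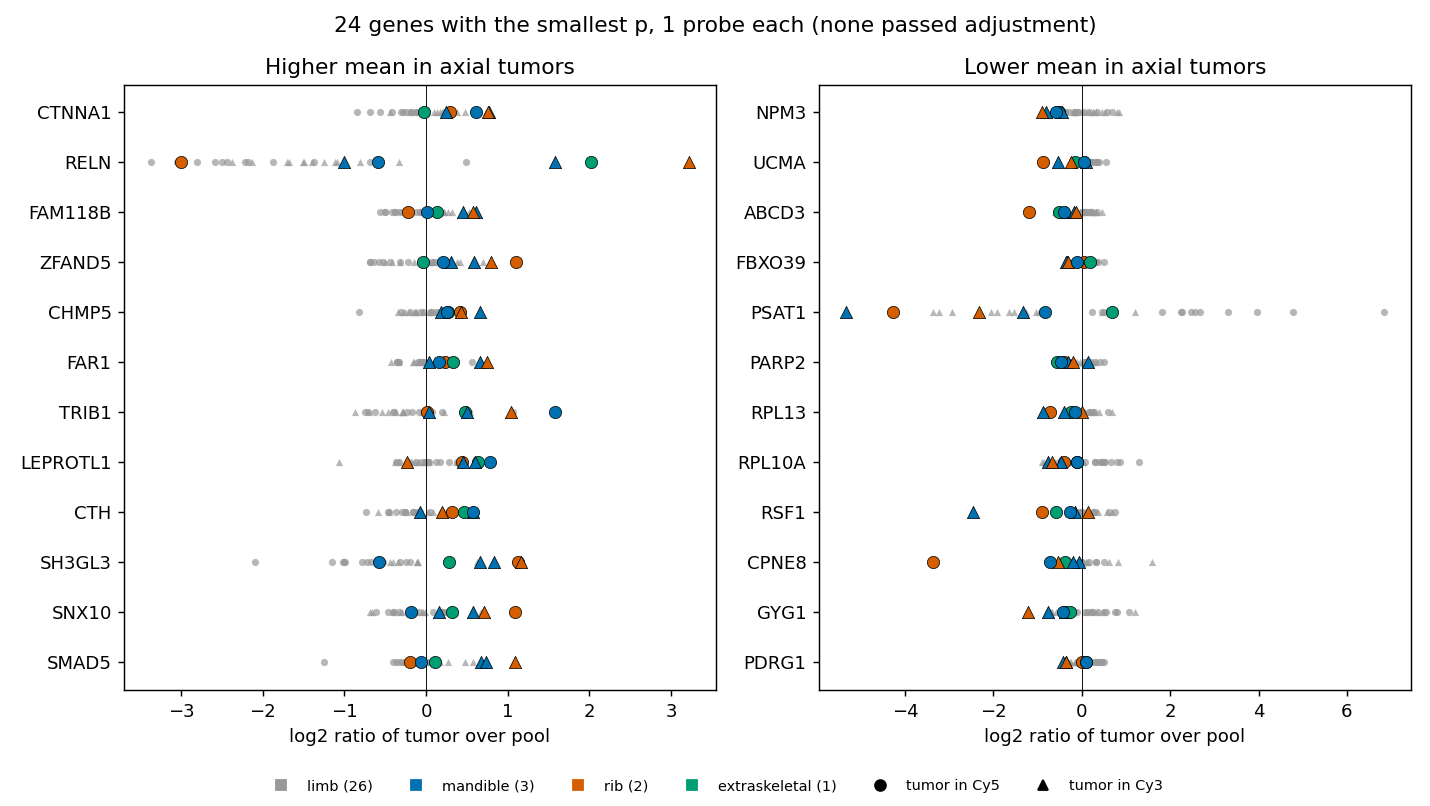
Log2 ratios of tumor over pool (x axis) for the 24 named genes with the smallest p between axial and limb tumors, 1 probe each; grey points are the 26 limb tumors, large colored points the 6 axial tumors by site, circles arrays with the tumor in Cy5 and triangles in Cy3. For each gene some axial tumors lie within the limb range, and RELN shows the axial tumors spread from -3.00 to 3.22.

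Agreement between probes of a gene was used as a further description, chosen after the values were seen. Of 1619 genes with 2 or more probes, 22 had every probe at an unadjusted p under 0.05 in 1 direction, 18 of them higher and 4 lower in axial tumors. TKT, the pentose phosphate enzyme transketolase, was higher at all 5 probes (0.29 to 0.69). The genes of the LIM domain protein PDLIM1 (3 probes, 0.30 to 0.66), the monocyte receptor CD14 (0.34 and 0.35), the actin regulator CAP1 (0.35 and 0.38) and the ubiquitin ligase subunit WSB1 (0.38 and 0.41) were among the others. The tight junction gene CLDN10 was lower at its 3 probes (-1.45 to -0.67), beside RPL13, PYROXD1 and CATSPERD. SPAG9 and PCP4 were among the 18 as well, and of the rib tumors only tumor 22 was high for them. Agreement between probes is thus not agreement between tumors, and the share expected for probes of 1 gene was not computed. None of these genes passed the adjustment over all probes.

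Genes of antigen presentation and the interferon response had higher means in axial tumors at all 13 of the 13 measured, with a median difference of 0.38 against -0.01 over all 5246 genes, of which 48% were higher. With the sign of the Cy3 arrays turned, 11 of the 13 were higher (median 0.16, beside 55.3% of all genes). Limma called 0 of the 13, and 2 had an unadjusted p under 0.05: B2M, the light chain of MHC class I (gene mean 0.81, SE 0.39), and DLA-DQA1, an MHC class II chain (0.38, SE 0.16). B2M had log2 ratios of 1.32 in tumor 19, 1.29, 1.03 and 0.07 in mandible tumors 31, 16 and 21, and -0.38 and -0.62 in rib tumors 1 and 22, against -2.64 to 1.62 (median -0.46) in limb tumors. The level of the whole list, the mean log2 ratio of its genes, was 1.03 in mandible tumor 31, 0.83 in tumor 19 and 0.31 in mandible tumor 16, but -0.30 in mandible tumor 21 and -0.50 and -0.42 in the rib tumors. Limb tumors ranged from -1.10 to 1.11 (median -0.32), so every axial tumor lay within the limb range. Against limb tumors, 13 of 13 genes were higher in mandible tumors (median 0.69) and 3 of 13 in rib tumors (median -0.17). A test of that difference over the list was not run. In bulk tumor RNA, fewer cells of a type and less RNA per cell cannot be told apart.

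Leukocyte markers followed the same tumors. Tumors 19 and 31 were the highest axial tumors for macrophage and neutrophil genes (0.72 and 0.39), B cell and plasma cell genes (1.53 and 1.22) and T and NK cell genes (0.34 and 0.35), while rib tumor 22 was the lowest for the first and second of these lists and rib tumor 1 for the other. Limb tumors ranged from -0.79 to 1.90, from -1.36 to 1.17 and from -0.29 to 0.38 for the same lists. JCHAIN, the joining chain of secreted antibody, was at 2.10 in tumor 31 and 1.81 in tumor 19 and between -1.40 and -0.15 in the other axial tumors. Of the measured genes, 12 of 14 macrophage and neutrophil genes had higher means in axial tumors (median 0.13), 5 of 6 T and NK cell genes (0.06) and 2 of 2 B cell and plasma cell genes (0.56). CD14 (gene mean 0.34, SE 0.13) and LCK, a kinase of T cells (0.21, SE 0.10), had an unadjusted p under 0.05, and limma called 0 genes of these lists. Lower means were found for CD3D, a defining T cell gene (-0.11), and for CD86 of the macrophage and neutrophil list (-0.18). Without tumor 19, 7 of the 14 macrophage and neutrophil genes were higher (median 0.01), and on the Cy3 arrays alone 4 were. The part of leukocyte content in the antigen presentation genes was not tested.

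Ribosomal protein genes had lower means in axial tumors at 45 of 54 measured (median difference -0.12). RPS25 (-0.52, SE 0.21), RPL13, RPLP1 and RPSA were lower and RPS28 higher at an unadjusted p under 0.05, and limma called 0. The level of the list differed with orientation. On Cy5 arrays it was -0.13, -0.02 and 0.00 in axial tumors 1, 19 and 31, and -0.12 to 0.37 in limb tumors. On Cy3 arrays it was -0.34, -0.24 and -0.19 in axial tumors 16, 21 and 22, and -0.48 to 0.06 in limb tumors. The 54 genes were lower on balance within both orientations, with medians of -0.14 on Cy5 and -0.09 on Cy3 arrays, and 34 were lower (median -0.04) with the Cy3 sign turned.

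Skeletal muscle genes had lower means at 24 of 25 measured (median -0.14), with 0 called. The list level was -0.57 to -0.22 in axial tumors, which all lay below 0, and -0.47 to 1.32 (median -0.25) in limb tumors, of which 4 were above 0 (the scapula tumors 27 and 30 and tumors 7 and 29). Without the scapula tumors 18 of the 25 were lower (median -0.12), and 14 with the Cy3 sign turned (median -0.01). Cell cycle and DNA replication genes were lower at 12 of 14 (median -0.10), but at 6 of 14 with the Cy3 sign turned (median 0.02). POLA1, the catalytic subunit of DNA polymerase alpha, differed by -0.24 (gene mean, SE 0.10, limma adjusted p = 0.758). The list was lowest in tumor 19 (-0.41) and highest in mandible tumor 16 (0.19), within the limb range of -0.66 to 0.52.

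Bone and cartilage matrix genes set single axial tumors apart more than the group. The 7 measured osteoblast and bone matrix genes had a level of 0.94 in mandible tumor 16 and -2.29 in rib tumor 22, both outside the limb range of -1.15 to 0.81, and their median difference was 0.01. SPP1, osteopontin, was at 2.14, 1.14 and -0.45 in mandible tumors 16, 21 and 31, at 1.44 and -3.88 in rib tumors 1 and 22, and at 0.79 in tumor 19. Rib tumor 22 also had the lowest levels of fibroblast and fibrous matrix genes (-1.22, limb range -0.96 to 1.02) and of matrix proteases and their inhibitors (-1.52, limb range -0.93 to 0.38). The cartilage genes COL2A1 and COMP both had lower means in axial tumors (-0.49 and -0.69, SE 0.50 and 0.60). Their mean level was 1.12 in mandible tumor 21 and between -2.09 and -1.21 in the other 5, with limb tumors from -2.31 to 2.32 (median -0.63).

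**Figure D2:**
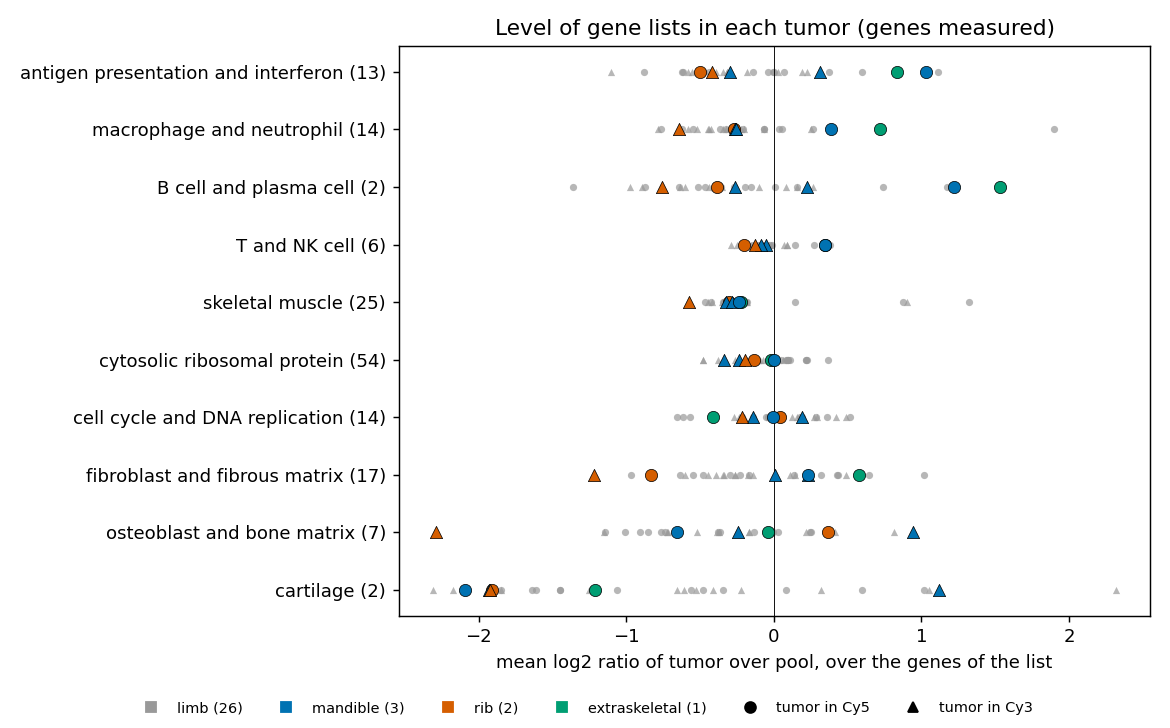
Mean log2 ratio of tumor over pool (x axis) over the genes of 10 lists, with the number of genes measured in brackets; grey points are limb tumors and colored points axial tumors by site, circles Cy5 and triangles Cy3. The extraskeletal tumor 19 and mandible tumor 31 are the highest axial tumors for the 4 immune lists, and rib tumor 22 lies below every limb tumor for bone matrix and fibrous matrix genes.

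Position genes were few on the array. Of the listed anterior HOX and cofactor, more posterior HOX, limb bud patterning and jaw or neural crest genes, 3, 1, 2 and 4 were measured. Limma called 0 of these 10, with 0 at an unadjusted p under 0.05. HOXB7 was the only gene measured of the more posterior HOX list. It was at 0.15 in rib tumor 1 and between -0.30 and -0.05 in the other 5 axial tumors. Limb tumors ranged from -0.49 to 0.59 (median 0.01), and the difference was -0.18 (SE 0.11). HOXA4 (-0.03), MEIS2 (0.13, the mean of 2 probes), PBX3 (-0.11), TBX3 (0.17), PRRX2 (-0.17), NR2F1 (0.05), NR2F2 (0.09), EDN1 (0.18) and EYA1 (0.04) each had an unadjusted p above 0.05. The limb range of HOXB7 held all 6 axial tumors.

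Of the tissues next to these sites, epithelial and oral mucosa genes were higher at 5 of 7 (median 0.13). S100A2, a calcium-binding protein of basal epithelium, was at 2.17, 0.47 and 1.03 in mandible tumors 16, 21 and 31, at -0.36 and 0.71 in the rib tumors and at -0.71 in tumor 19, against -1.62 to 1.08 in limb tumors (difference 0.74, SE 0.23, limma adjusted p = 0.873). KRT18, a keratin of simple epithelia, was at 1.47 in mandible tumor 16 and differed by 0.34, or by 0.0727 without that tumor. EPCAM, a defining epithelial gene, differed by -0.02. The tooth and salivary list had 1 of 3 genes higher, the osteoclast list 6 of 7 (median 0.13; CTSK 0.48, SE 0.51), smooth muscle and pericyte genes 5 of 7, endothelial genes 4 of 6, adipocyte genes 1 of 5, erythroid and marrow genes 2 of 3 and neural and Schwann cell genes 4 of 9, with 0 called in each.

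In the signaling and metabolic lists limma called 0 genes too. Wnt pathway genes were higher at 5 of 13, BMP and TGF-beta genes at 5 of 11, hedgehog and FGF genes at 6 of 9, IGF axis genes at 5 of 7, glycolysis and hypoxia genes at 14 of 25, respiratory chain genes at 21 of 42, fibroblast and fibrous matrix genes at 6 of 17 and matrix proteases and inhibitors at 2 of 6. APC, which restrains Wnt signaling (0.36, SE 0.15), DUSP6, a phosphatase that limits ERK signaling (0.73, SE 0.27), and STC1, a secreted stanniocalcin (0.48, SE 0.23), had an unadjusted p under 0.05. STC1 was at 1.62 in rib tumor 22 and 1.38 in mandible tumor 21 and between -0.75 and 0.19 in the other axial tumors, and differed by 0.27 without tumor 22. For DUSP6 all 6 axial tumors lay above the limb median, between -0.16 and 1.24.

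TIMP1, an inhibitor of matrix metalloproteinases, was the only probe at which the difference between axial and limb tumors itself differed between orientations (1 of 22176 probes, 0.00451%). On the Cy5 arrays it was at 2.25 in rib tumor 1, 1.95 in tumor 19 and 0.73 in mandible tumor 31, and on the Cy3 arrays at 0.24 in mandible tumor 21, -0.48 in mandible tumor 16 and -1.69 in rib tumor 22. Limb tumors of both orientations ranged from -0.99 to 0.58 (median -0.59). The difference was 2.22 within Cy5 and -0.28 within Cy3 (interaction 2.50, SE 0.42, limma adjusted p = 0.028), and 0.97 (SE 0.30) over all arrays. Each orientation holds different tumors, so the dye and the tumors cannot be told apart here. TIMP1 was not called for this interaction without tumor 1, 19 or 22, with array weights or after quantile normalization, and it was called without tumor 16, 21 or 31. With all tumors 1241 probes had an unadjusted p under 0.05 for the interaction.

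By site, mandible tumors differed from limb tumors at 0 of 22176 probes by limma (0%), with 700 at an unadjusted p under 0.05 (3.16%) and a smallest adjusted p of 0.135. With array weights, which give noisy arrays less weight, 103 of 22176 probes were called, 89 higher and 14 lower. SCG3, APOC1 and FABP7 were among those higher. So were TRIB1, S100A2, LEPROTL1, CTNNA1, 1 probe of CD14 and 2 probes of TKT. These were named above for the axial group, which holds the same mandible tumors, so this is no separate result. With 1 mandible tumor left out the count was 1 to 13.

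Rib tumors differed from limb tumors at 347 probes (1.56%), 220 higher (0.992%) and 127 lower (0.573%), of which 118 carried a gene name (109 genes). This rests on 2 tumors whose spread is taken from all groups. Both rib tumors lay on the same side of the limb mean at 292 of the 347 probes, and both beyond every limb tumor of their own orientation at 136. Their distances were unequal at most probes. Rib tumor 1 lay farther from the limb mean of its orientation at 242 of the 347 probes and tumor 22 at 105, and at 222 probes one of them was more than 3 times as far as the other (168 of them tumor 1). Both lay beyond every limb tumor of either orientation at 76 probes. The 347 probes were selected by this comparison itself, so these counts are no separate evidence that the 2 tumors agree. Shares over all probes were not computed. With tumor 22 alone 423 probes were called, 93 of them among the 347, and with tumor 1 alone 1259, 236 of them among the 347; a lone tumor is assumed to vary as the others do.

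**Figure D3:**
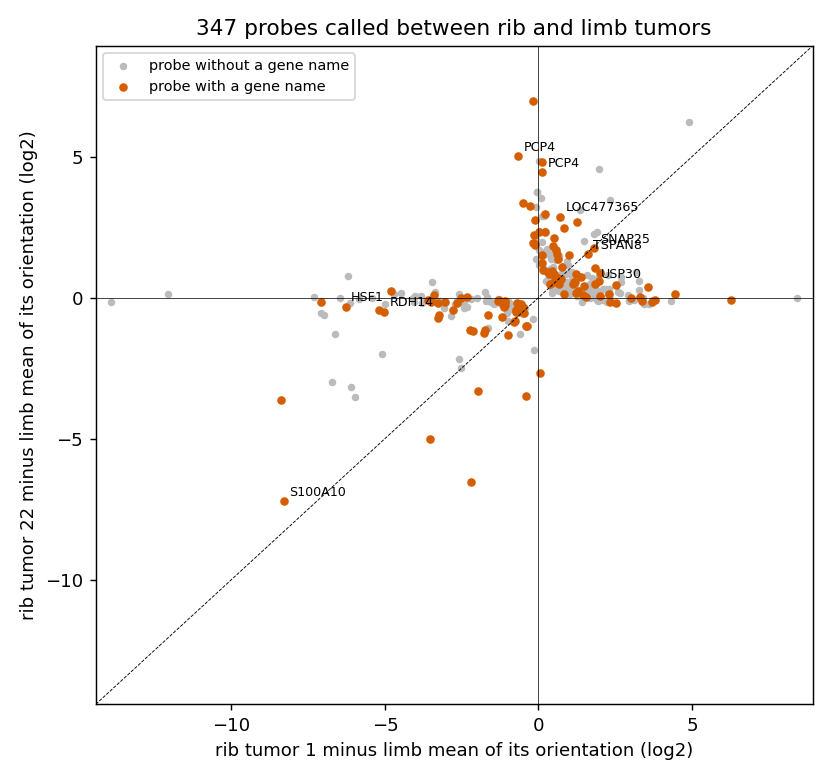
Difference from the mean of limb tumors of the same orientation, on the log2 scale, in rib tumor 1 (x axis) and rib tumor 22 (y axis) for the 347 probes called between rib and limb tumors; orange points carry a gene name and the dashed line marks equal differences. Most points lie along 1 of the axes, with S100A10, SNAP25 and TSPAN8 among the few far from 0 in both tumors.

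Both rib tumors stood apart for TSPAN8, a tetraspanin of the cell surface, at 1.51 in tumor 1 and 1.32 in tumor 22. The other 4 axial tumors lay between -0.40 and -0.12 and limb tumors between -0.71 and 0.50 (median -0.17), so the rib tumors did not overlap with any other tumor. The difference of rib minus limb was 1.58 (SE 0.20, limma adjusted p = 0.000122), and that of mandible minus rib -1.65 (limma adjusted p = 0.00507).

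SNAP25, a protein of vesicle release best known from neurons, was at 1.11 in rib tumor 1 and 1.95 in rib tumor 22, against -1.32 to 0.48 (median -0.16) in limb tumors, and at 0.78 in mandible tumor 21. Rib minus limb was 1.79 (SE 0.23, limma adjusted p = 0.000122). SNAP25 was the only one of 10 probes of the neural and Schwann cell list called. Its gene mean had an unadjusted p under 0.05 in the whole axial group (0.69, SE 0.20). That group holds the same rib tumors, so this is no separate result, and mandible minus rib was -1.61.

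FEZF2, a transcription factor of forebrain development, was at 1.29 in rib tumor 1 and 0.67 in rib tumor 22, but mandible tumor 31 was at 0.87 and limb tumors reached 1.04, so the groups overlapped (rib minus limb 0.93, SE 0.14, limma adjusted p = 0.00121). LOC477365 was at 0.80 and 2.41 in the rib tumors, both above the limb tumors (highest 0.36), with a difference of 1.79 (SE 0.28). GET3, which delivers tail-anchored proteins to membranes, was at 0.68 and 1.91, just above and far above the highest limb tumor (0.67), while its other probe differed by -0.31. USP30, a deubiquitinase of mitochondria, was at 2.02 in rib tumor 1 and 0.27 in tumor 22, within the limb range of -0.67 to 0.46, and its other probe differed by 0.11.

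The lower calls came mostly from rib tumor 1. The S100A10 probe with the smallest p, for a calcium-binding partner of annexin, was at -6.44 in tumor 1 and -8.21 in tumor 22, below every limb tumor (-2.76 to 7.81, median 0.10), with a difference of -7.76 (SE 1.28, limma adjusted p = 0.00311). The other 3 probes of S100A10 differed by 0.74, 0.30 and 0.14, in the opposite direction, so the gene has no settled direction here.

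RDH14, a retinol dehydrogenase, was at -5.02 in rib tumor 1 and -0.40 in rib tumor 22, against -0.47 to 0.76 in limb tumors. CECR2, a bromodomain protein, was at -3.00 and -0.31 (limb tumors -0.28 to 0.70), PP2D1 at -2.81 and -0.55 (-0.64 to 0.41) and LOC478670 at -2.94 and -0.19 (-0.28 to 0.51). Tumor 1 lay far below all limb tumors at these genes, and tumor 22 inside the lower end of the limb range or, for CECR2, just below it. Their differences were -2.76, -1.74, -1.61 and -1.60 with limma adjusted p of 0.00374 to 0.00552, and with tumor 1 left out they were -0.53, -0.19, -0.46 and -0.16. The other 3 LOC478670 probes differed by -0.25 to 0.04.

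Several probes of the same gene were called for 7 genes, with 16 probes in all. SPAG9, a scaffold for JNK signaling, was at 2.20, 2.48 and 2.13 at its 3 probes in rib tumor 22 and at -0.18, -0.25 and -0.33 in rib tumor 1, and limb tumors reached 0.36. PCP4, a calmodulin regulator of neurons, was at 3.64 and 3.81 in tumor 22 and at -0.68 and -1.85 in tumor 1, with limb tumors from -1.62 to -0.12 over both probes. The high level of both genes was thus that of rib tumor 22 alone.

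HTRA2, a protease of mitochondria, was at -3.22 and -2.24 at 2 probes in rib tumor 1 and at -0.41 and -0.34 in rib tumor 22, with limb tumors down to -0.63, while its remaining probe was at 0.37 and -0.36. ABCF1, which acts in translation initiation, was higher at 3 probes, with 1.34, 1.74 and 0.87 in tumor 22 and 0.64, 0.29 and 0.23 in tumor 1. ZFAND5 was at 1.10 and 0.79 in rib tumor 1 and at 0.79 and 0.78 in rib tumor 22 at its called probes, above every limb tumor (highest 0.70 and 0.53), and its remaining probe was at -0.05 and 1.88. Of the other 6 genes, ABCF1 at its first probe (limb highest 0.48) had both rib tumors above every limb tumor. DDR1, a collagen receptor kinase, and STK39, a kinase that regulates ion cotransport, were higher in tumor 22 at the first of their probes (1.56 and 2.45), with limb tumors up to 1.54 and 1.69.

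**Figure D4:**
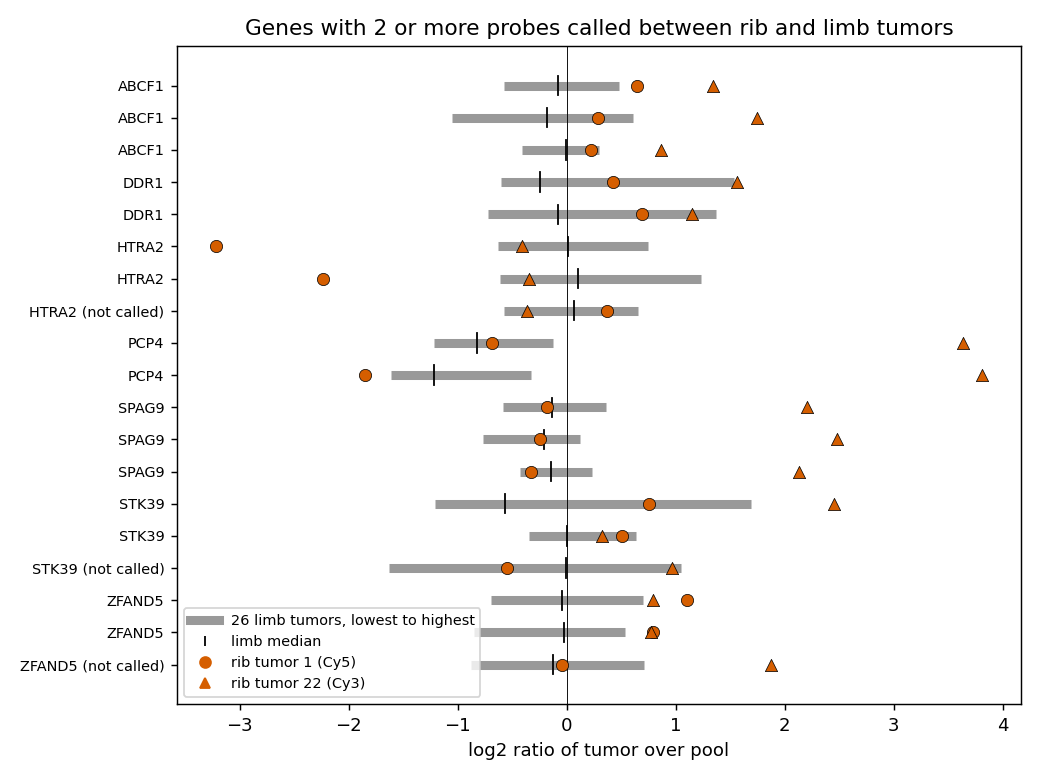
Log2 ratios of tumor over pool (x axis) for all probes of the 7 genes with 2 or more probes called between rib and limb tumors; grey bars run from the lowest to the highest of 26 limb tumors, ticks mark the limb median, circles are rib tumor 1 and triangles rib tumor 22. SPAG9 and PCP4 are far above the bars in tumor 22 alone, HTRA2 far below in tumor 1 alone at 2 of 3 probes, and ZFAND5 above in both at 2 of 3.

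Of the 566 probes of the gene lists, 6 were called between rib and limb tumors (1.06%, beside 1.56% of all probes). They were SNAP25, which was higher, and ATP2A1, ACTN2, ASPN, HTRA1 and RPL17, which were lower. Of 52 skeletal muscle probes, those of the calcium pump ATP2A1 (-0.56) and the actin crosslinker ACTN2 (-1.14) lay 0.63 and 1.65 below the limb mean in tumor 1 and 0.49 and 0.63 below it in tumor 22. ASPN, a small matrix proteoglycan and 1 of 33 fibroblast and fibrous matrix probes (-1.43), lay 1.73 and 1.13 below it. RPL17, 1 of 131 ribosomal protein probes (-0.68), lay 1.30 below it in tumor 1 and 0.07 below it in tumor 22. HTRA1, a secreted protease and 1 of 11 matrix protease probes (-2.63), was at -2.02 in tumor 1 and -3.75 in tumor 22. The other 4 probes each of ATP2A1 and ACTN2 and the other 6 of RPL17 were not called.

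Mandible and rib tumors differed at 73 probes (0.329%), 28 higher (0.126%) and 45 lower (0.203%) in mandible, and 69 of these were among the 347 called between rib and limb. The named genes were S100A10 (mandible minus rib 8.88), RDH14 (3.05), HSF1 and TEX2 higher and TSPAN8, LOC477365, SNAP25, GET3 and USP30 lower, among others. HSF1, the heat shock transcription factor, was at -6.38 in rib tumor 1 and -0.16 in rib tumor 22, with limb tumors from -1.23 to 0.80, and its other 3 probes differed between rib and limb tumors by -0.08 to 0.02. TEX2 was at -2.36 and -0.09 in the same rib tumors, and its other probes differed between mandible and rib tumors by -0.13 and -0.003. The count of 73 was 12, 35 and 6 without mandible tumors 16, 21 and 31, and 289 and 768 without rib tumors 1 and 22.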

How the data were processed

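Processed values came from 32 two-color cDNA arrays. By the paper's methods, bad spots were marked, Lowess was applied within print tips and logs were taken. Data of arrays with exchanged dyes were turned before its statistics, and whether the deposited values had been turned is not stated. The deposited values were read as log2 ratios of tumor over pool for 22176 probes, with 5 missing. The base of the logarithm and the direction rest on the methods and the values. Symbols came from the platform annotation: 7694 probes had 1, 0 had several and 14482 had none, and 7340 were matched by gene identifier to RefSeq, which changed 0 symbols.

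Axial and limb tumors were compared with limma 3.58.1 in R 4.3.3 (lmFit, eBayes, two-sided), with dye orientation as covariate, p-values adjusted by Benjamini-Hochberg across the 22176 probes, and calls at an adjusted p under 0.10. Genes were tested on the mean of their probes. Sites were compared in 1 model with mandible, rib, extraskeletal and limb as groups, and location by orientation as an interaction. The scripts were tested on simulated data. SAM, which the methods state for the survival groups and which takes no covariate, was not used.

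The members and the 29 gene lists were chosen with earlier results of these data known. Named are the 12 higher and 12 lower named probes with the smallest p, all position genes, up to 4 genes of each other list, and the 5 higher and 5 lower probes with the smallest p of each called site comparison; a gene with several probes is given by that with the smallest p, and list members, where their difference is called a gene mean or stands in a list, by the mean of their probes. Genes with several agreeing probes and list probes called in ribs were added after their values were seen.

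Alternatives covered covariates, array weights, robust fits, scale and quantile normalization, single orientations, the sign of Cy3 arrays, subsets of tumors and each tumor left out. The number of arrays limits the precision, and channel intensities were not analysed here.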

Additional observations from a re-analysis of the deposited data

Results flagged for a closer look

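Among 51 probes of named genes, the values of the 6 axial tumors were searched for a tumor whose gap to the nearest other exceeded Dixon's critical share of the group's range, which chance gives for about 1 in 20. This held for 11 probes, and for 10 of them the tumor was rib tumor 1. It lay below the others for ABCD3 (-1.18), CECR2 (-3.00), CPNE8 (-3.37), HSF1 (-6.38), LCK (-0.60), LOC478670 (-2.94), PP2D1 (-2.81), RDH14 (-5.02) and TEX2 (-2.36), and above them for USP30 (2.02). For LEPROTL1, rib tumor 22 lay below the other axial tumors (-0.23, with the nearest at 0.44). Most of these genes had been named for their difference between rib and other tumors.

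The difference of axial and limb tumors differed between the orientations for TIMP1, by 2.50 (Cy5 minus Cy3, limma adjusted p = 0.028).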

How the results depend on the processing

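Of 39 named genes under 16 other settings, 605 of 624 differences between axial and limb tumors kept their direction and 19 reversed; with 1 tumor left out, 0 of 1248 reversed. With the sign of the Cy3 arrays turned, the difference was -0.50 for RELN, -0.0486 for FAM118B, -0.11 for CHMP5, -0.11 for FAR1, -0.0321 for SNX10, -0.29 for SMAD5, 0.19 for NPM3, 0.017 for RPL13, 0.14 for RSF1, -0.0025 for DLA-DQA1, -0.0603 for APC, -0.19 for KRT18, -0.39 for STC1, 0.00648 for POLA1 and 0.0556 for HOXB7. It was -0.28 for TIMP1 on Cy3 arrays alone, -0.0587 for KRT18 in LS alone, and -0.11 for RELN and -0.11 for LCK in SS alone. Without rib tumor 22, rib minus limb was -0.66 for a PCP4 probe and -0.11 and -0.13 for 2 SPAG9 probes (5.02, 2.76 and 2.23 without rib tumor 1), and 20 other rib values lost their call when 1 rib tumor was left out. The cause of these changes was not tested.

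Against 0 probes called between axial and limb tumors, limma called 1 with sex as a term, 2 with array weights (1 of them RELN), 4 on Cy5 arrays alone (TIMP1, ABCD3 and unnamed probes) and 9 in SS alone. Leaving out 1 tumor gave 0 to 2 probes (2 without tumor 1, 2 without tumor 22, 1 without limb tumor 30). Against 0 genes it called 5 with array weights (TIMP1, NABP1, TRIB1, LEPROTL1, RELN) and 0 to 1 with 1 tumor left out (RELN without tumor 1, UCMA without tumor 21, TIMP1 without tumor 22). Mandible against limb gave 103 probes with array weights, 89 of them higher, and 1 to 13 with 1 mandible tumor left out. The 347 rib probes were 173 without the orientation term, 53 with array weights, 115 after scale and 177 after quantile normalization (139 higher, 38 lower, against 220 and 127), 221 at an adjusted p of 0.05, and 423 to 1259 with 1 rib tumor left out. The 73 probes between mandible and rib were 10, 36, 0, 12 and 14 under the same settings, and 6 to 768 with 1 tumor left out. The 1 probe of location by orientation, TIMP1, was replaced by 3 unnamed probes with array weights and by 2 without tumor 19. The count was 0 after quantile normalization and 0 to 7 with 1 axial tumor left out (0 without tumor 1 or 22). Leaving out 1 tumor moved the axial difference by over 1.5 times for KRT18 (0.0727 without tumor 16), CPNE8 (-0.45 without tumor 1), RSF1 (-0.39 without tumor 21), RPLP1 (-0.17 without tumor 1), STC1 (0.27 without tumor 22), LCK (0.19 without tumor 19), UCMA (-0.25 without tumor 1), TIMP1 (0.64 without tumor 1) and SNAP25 (0.45 without tumor 1).

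The gene list counts on other samples or with the Cy3 sign turned and the rib values without each rib tumor were chosen after seeing the data. No paired analysis was possible because the replicate numbers are not shared between the groups. The 6 axial arrays, 2 of them rib, limit the precision, and channel signal over background was not analysed here.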
